A study of Mus musculus with 4 samples.

Results

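Histone acetylation is set by enzymes that add acetyl groups, proteins that bind them, enzymes that remove them, and corepressors that bring the removing enzymes to DNA. RNA of 35 genes for such proteins was compared between hypertrophic chondrocytes (HC) of mouse forelimb cartilage at E15.5 (days of embryonic age) and proliferating chondrocytes (PC) at E14.5, with 2 libraries of each from C57BL/6 mice. The 35 genes were taken by name, out of 34547 genes in the tables, in 5 classes. These were 10 acetyltransferases, 8 bromodomain proteins, 7 deacetylases of classes I, IIb and IV, 7 sirtuins and 3 corepressors. Chondrocytes had been cut out of cryosections with a laser, and the series is about epigenetic mechanisms in the step between both states. Zone and age change together, so an effect of one day of growth and of hypertrophy cannot be told apart. No agent or mutation was named for either group. Nothing in the labels says that the libraries of a group came from separate animals, so p-values measure the spread between libraries, which may be technical.

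Acetyl groups on the lysines of histone tails loosen chromatin and are bound by bromodomains, which thereby bring coactivators to active genes. Deacetylases of classes I, II and IV need zinc, whereas sirtuins need the cofactor NAD, and most class I enzymes work inside large corepressor complexes built on proteins such as Sin3 and NCoR. In growth plate cartilage, deacetylases are best known for holding back hypertrophy, chiefly through class IIa members that bind Mef2 factors, while Ep300 and Crebbp serve as coactivators of cartilage transcription factors. The genes are described below from writers to readers, erasers and corepressors.

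The HC libraries held 15246529 and 21866266 estimated counts, and the PC libraries 30373440 and 36644496. The count model was fitted to 16607 genes, and all 35 genes passed its filter on low counts. Of the hypertrophic markers, 6 of 6 were higher in both HC libraries, with summed levels of 32650 and 39430 CPM (counts scaled to library size with TMM factors) in HC and 191.8 and 1554 CPM in PC. Markers of dividing cells summed to 519.5 and 172.2 CPM in HC against 1622 and 2033 CPM in PC, and all 6 were lower in both HC libraries. Markers of other cell types were also higher in both HC libraries, for 6 of 6 endothelial, 5 of 6 macrophage, 6 of 6 red blood cell, 5 of 6 osteoblast and perichondrium, 3 of 6 muscle, 1 of 4 nerve and 2 of 4 epidermis genes. The nerve gene Elavl4 was lower in both HC libraries, with 0 and 1 counts in HC and 40 and 68 in PC. The macrophage gene C1qa and the epidermis gene Krt5 were at 0 counts in both HC libraries. In PC, C1qa had 2 and 11 counts and Krt5 had 0 and 10. Endothelial markers summed to 245.6 and 131.1 CPM in HC and 25.3 and 22.4 CPM in PC, macrophage markers to 144.7 and 52.4 CPM in HC and 6.71 and 13.0 CPM in PC, and red blood cell markers to 325.8 and 303.0 CPM in HC and 21.4 and 40.9 CPM in PC. Osteoblast and perichondrium markers summed to 13300 and 4554 CPM in HC against 704.0 and 1193 CPM in PC. Of 8 general chondrocyte markers, 5 were lower in both HC libraries and 1 was higher. They summed to 32380 and 38620 CPM in HC and 52570 and 40910 CPM in PC. The part of any of these in the differences below was not tested. In bulk RNA, fewer cells of a type and less RNA per cell cannot be told apart. HC replicate 3 was the shallowest library, with 20.16% of its counts in mitochondrial transcripts, against 14.11% in HC replicate 4 and 8.81% and 13.15% in PC.

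No gene of the 35 passed edgeR's quasi-likelihood test at an adjusted p of 0.05, where 4.71% of all genes tested did. At an unadjusted p under 0.05, 5 of 35 differed, 2 higher and 3 lower in HC, against 27% of all genes. The median log2 fold change of HC over PC was -0.27 over the 35 genes and -0.04 over all genes tested. Both HC libraries lay above both PC libraries for 6 genes and below them for 14, and the groups overlapped for 15. Over all genes tested, 61% had groups that did not overlap, 27.7% with HC above and 33.3% with HC below. DESeq2 called 2 higher (Kat2b and Hdac8) and 2 lower (Kat2a and Kat6b) of the 35 and 18.1% of all genes, and without a filter on low counts edgeR called 2 higher and 1 lower of the 35 and 7.98% of all. With an offset for effective length 0 of the 35 and 1.2% of all genes passed in edgeR. limma-trend on TPM, the level per transcript length within a library, called 0 of the 35 and 0% of all genes, with 1 of the 35 higher and 3 lower at an unadjusted p under 0.05, against 25% of all genes.

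The count also changed when either HC library was left out, and with which of them remained. Without HC replicate 4, 2 of the 35 genes were higher and 7 lower, where 39% of all genes passed, and without HC replicate 3, 2 were higher and 2 lower, where 28.3% passed. Without PC replicate 1, 0 of the 35 passed in edgeR, where 3.49% of all genes did, and without PC replicate 2, 0 passed, where 6.26% did. At an unadjusted p under 0.05 the fit without PC replicate 1 held 1 higher and 0 lower of the 35, against 10.5% of all genes, and that without PC replicate 2 held 2 higher and 2 lower, against 14.3%. Kat2b and Hdac8 (higher) and Kat2a and Hdac6 (lower) passed with either HC library left out. Only without HC replicate 4 did Kat5, Hdac10, Sirt4, Sirt6 and Sirt7 pass as lower. With a library left out, the lone library of its group is assumed to vary like the pair of the other group.

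**Figure D1:**
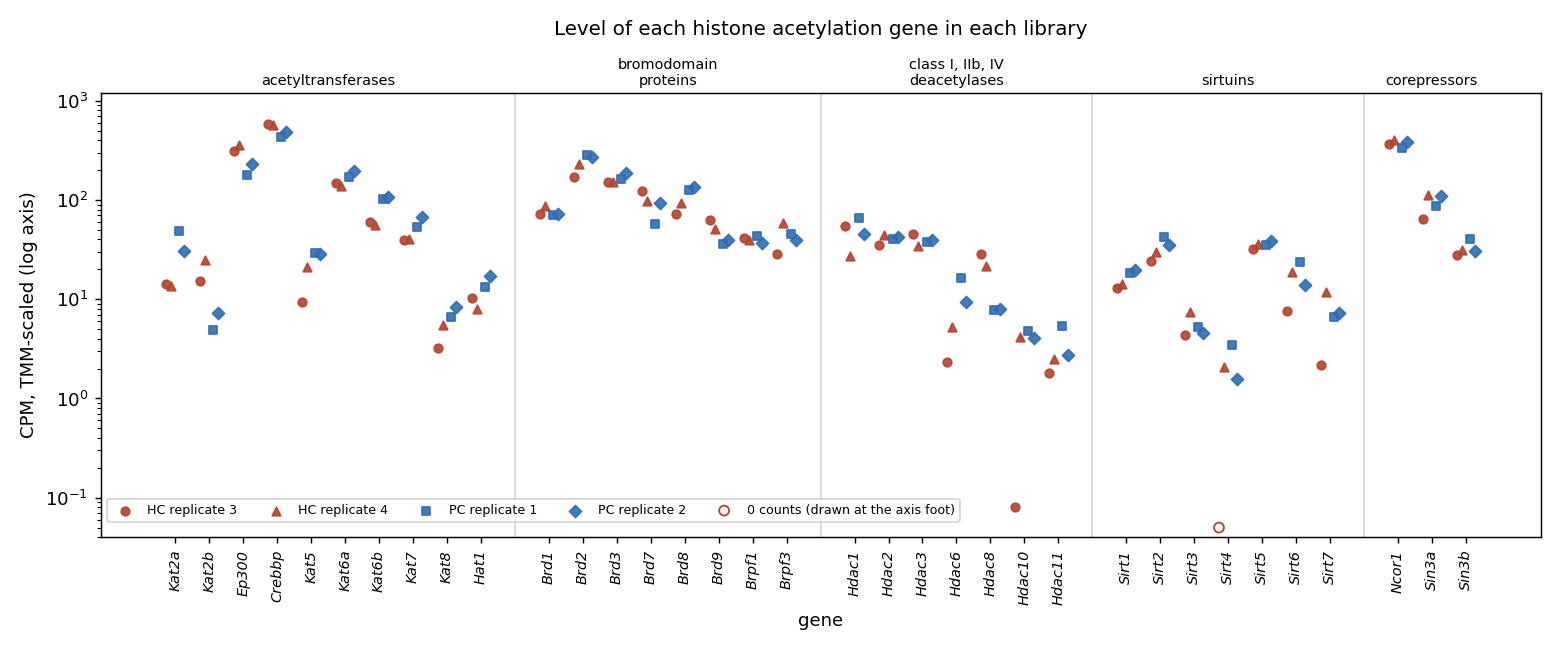
Level of each of the 35 genes in each library, in TMM-scaled CPM on a log axis, grouped by class, with HC libraries in red left of PC libraries in blue. Kat2b and Hdac8 stand higher in both HC libraries and Kat2a and Hdac6 lower, while Sirt4 has 0 counts in HC replicate 3 and Hdac10 has 1.

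Among acetyltransferases, the paralogs Kat2a and Kat2b had opposite differences, neither past the threshold. Both are catalytic subunits of the coactivator complexes SAGA and ATAC, in which a complex holds either one or the other. Kat2a (chromosome 11, 100704746 to 100712465, minus strand, GRCm38 as for all coordinates here) had 14.1 and 13.6 CPM in HC and 48.2 and 30.3 CPM in PC. Both HC libraries were nearly equal, and both lay below the lower PC library. The log2 fold change was -1.50 ± 0.37 (SE from the edgeR fit with 2 libraries per group, adjusted p in edgeR 0.0755), a level 2.83-fold lower in HC. Kat2b (chromosome 17, 53566861 to 53672720, plus strand) had 15.3 and 24.8 CPM in HC and 4.91 and 7.22 CPM in PC. Again the groups did not overlap, and the log2 fold change was 1.73 ± 0.46 (SE, adjusted p in edgeR 0.0862), a level 3.31-fold higher in HC. The log2 95% intervals of Kat2a and Kat2b were -2.40 to -0.60 and 0.60 to 2.85, which leave out 0 before adjustment over all genes. Over the 13 alternative settings Kat2a ranged from -2.12 to -1.16 with adjusted p-values from 0.00827 to 0.671, and Kat2b from 1.29 to 2.57 with adjusted p-values from 0.00316 to 0.611.

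The stretches before the start sites of Kat2a and Kat2b are shown because these paralogs had opposite differences. Kat2a is read on the minus strand at chr11:100712468-100712717 and Kat2b on the plus strand at chr17:53566721-53566860, both from RefSeq on GRCm38.p6, cut where the annotated gene begins. Motifs searched on both strands were the GC box with the letters GGGCGG, the CCAAT box with the letters of its name, and the core bound by Ets factors, written TTCCGG. These would stand in capitals, and neither printed stretch holds one.
Kat2a: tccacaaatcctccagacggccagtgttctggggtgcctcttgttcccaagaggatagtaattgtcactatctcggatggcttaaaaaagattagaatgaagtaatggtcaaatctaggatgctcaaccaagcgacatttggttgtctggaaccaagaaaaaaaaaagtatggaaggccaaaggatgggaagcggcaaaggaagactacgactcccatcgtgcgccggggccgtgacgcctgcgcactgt
Kat2b: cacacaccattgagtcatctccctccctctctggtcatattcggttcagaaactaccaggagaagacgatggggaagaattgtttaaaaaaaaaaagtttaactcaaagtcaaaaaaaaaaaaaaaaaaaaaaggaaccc
In the full 250 bases before the RefSeq start, Kat2a had 48.8% GC with 11 CpG and Kat2b 40.8% GC with 6 CpG. Kat2b had 1 CCAAT match, in the part that lies inside the annotated gene and is not printed. The median over the 30 of the 35 genes with a promoter sequence was 62.6% GC with 18.0 CpG, and over all 32536 distinct promoters 52.4% GC with 6.0 CpG. A GC box stood in 70.0% of the 30 promoters against 33.0% of all, an Ets core in 33.3% against 12.1%, and a CCAAT box in 36.7% against 33.8%. The motifs were chosen after the values of the genes were seen, and a match describes letters only.

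The MYST-type acetyltransferases Kat5, Kat6a, Kat6b, Kat7 and Kat8 and the unrelated Hat1 were lower in both HC libraries, none past the threshold in edgeR. Of all genes tested, 33.3% were lower in both HC libraries. Kat6b (chromosome 14, 21481434 to 21672478) had 60.0 and 56.3 CPM in HC and 103.3 and 107.8 CPM in PC. Libraries of a group lay close together, and the log2 fold change was -0.86 ± 0.27 (SE from the edgeR fit, adjusted p in edgeR 0.115). DESeq2 called Kat6b lower (-0.84, adjusted p = 0.0449), and over all 13 settings its adjusted p-values ran from that value to 0.727. Its paralog Kat6a, which serves in the same type of complex, had 149.8 and 138.0 CPM in HC and 170.8 and 196.2 CPM in PC. The log2 fold change of Kat6a was -0.35 (95% interval -1.05 to 0.35). Kat7, the HBO1 enzyme tied to the licensing of replication origins, was at -0.59 ± 0.29, and Hat1, which acetylates newly made histones before they enter chromatin, at -0.74 ± 0.41. Hat1 had 10.4 and 7.88 CPM in HC and 13.2 and 17.3 CPM in PC.

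Kat5, the catalytic subunit of the NuA4 complex, differed widely within HC. It had 9.42 and 21.3 CPM in HC and 29.5 and 28.6 CPM in PC, a log2 fold change of -0.92 ± 0.46. Its value was -1.67 without HC replicate 4 (adjusted p in edgeR 0.007) and -0.48 without HC replicate 3, and it passed in no other setting run. Kat5 overlaps Rnaseh2c on the opposite strand, with 414.5 and 177.3 estimated counts in HC and 801.3 and 1347.6 in PC, and the sources used here do not say whether the counting used strand. Kat8, which acetylates histone H4, had only 40 and 122 counts in HC and 227 and 321 in PC, and its interval ran from -2.15 to 0.61.

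The coactivators Ep300 and Crebbp, which acetylate histones at enhancers, were the acetyltransferases with the most reads. Crebbp (chromosome 16, 4081328 to 4213997) had 579.0 and 563.0 CPM in HC and 434.8 and 489.1 CPM in PC. Its log2 fold change was 0.31 with a 95% interval of -0.43 to 1.05, a level 0.741-fold to 2.06-fold that of PC. Ep300 had 314.7 and 358.1 CPM in HC and 177.5 and 230.7 CPM in PC. Both HC libraries lay above both PC libraries for Ep300, at 0.72 ± 0.31 (SE, adjusted p in edgeR 0.203).

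**Figure D2:**
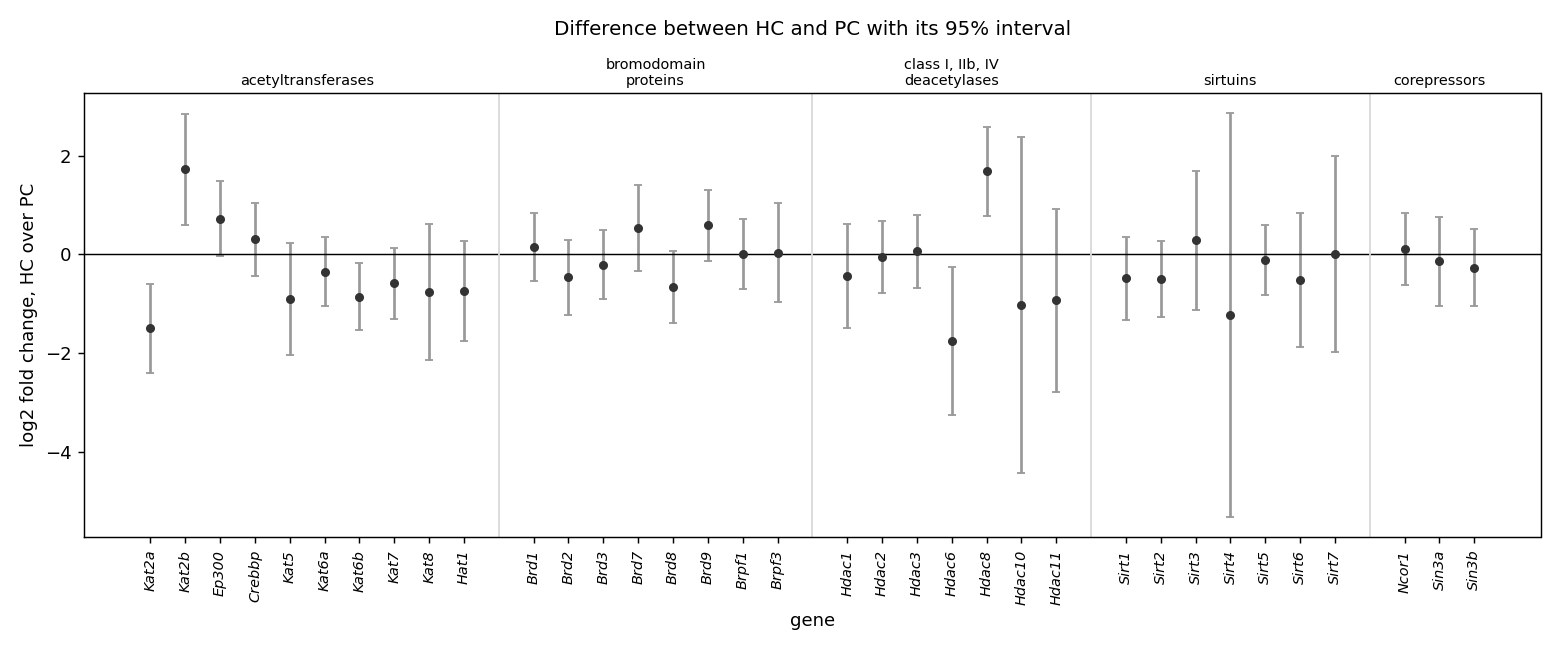
Log2 fold change of HC over PC for each of the 35 genes from edgeR's quasi-likelihood fit, with its 95% interval, grouped by class. Intervals of Kat2a, Kat2b, Kat6b, Hdac6 and Hdac8 leave out 0, and those of Hdac10 and Sirt4 span more than any others.

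Log2 fold changes of bromodomain proteins ran from -0.66 to 0.59 with a median of 0.02. None of the 8 differed at an unadjusted p under 0.05, where 27% of all genes did. Brd8, the bromodomain subunit of the NuA4 complex, had 72.2 and 92.8 CPM in HC and 126.8 and 134.3 CPM in PC. The groups did not overlap, and the log2 fold change was -0.66 ± 0.29 (SE from the edgeR fit, adjusted p in edgeR 0.215). Brd9 and Brd7, subunits of different forms of the SWI/SNF remodelling complex, stood higher in both HC libraries. Brd9 had 63.2 and 50.7 CPM in HC and 36.4 and 39.1 CPM in PC (0.59 ± 0.29), and Brd7 had 123.8 and 96.8 CPM in HC and 57.9 and 93.7 CPM in PC (0.54 ± 0.35). HC replicate 4 and PC replicate 2 of Brd7 nearly met.

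The BET proteins Brd2 and Brd3 read acetylated histones at active genes. Brd2 (chromosome 17, 34112023 to 34122634), the most abundant of the class, had 171.7 and 230.4 CPM in HC and 286.6 and 269.5 CPM in PC. Its log2 fold change was -0.47 with a 95% interval of -1.22 to 0.29, and that of Brd3 was -0.21 with an interval of -0.90 to 0.48. Brd1, Brpf1 and Brpf3 are scaffolds that link MYST acetyltransferases to chromatin, and their log2 fold changes were 0.15, 0.01 and 0.03. Each of the 3 turned negative in some settings, as on TPM. Brpf3 had 28.5 and 58.6 CPM in HC, on either side of 45.2 and 39.95 CPM in PC.

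Of the zinc-dependent deacetylases, Hdac8 was higher and Hdac6 lower in both HC libraries, neither past the threshold. Hdac8 (chromosome X, 102284639 to 102505359, minus strand), a class I enzyme known for removing acetyl groups from cohesin, had 28.7 and 21.6 CPM in HC and 7.70 and 7.94 CPM in PC. The PC libraries were nearly equal, and the lower HC library was well above them. Its log2 fold change of 1.68 ± 0.37 (SE from the edgeR fit) had the smallest adjusted p in edgeR of the 35 genes, 0.0607. The level was 3.21-fold higher in HC with a 95% interval of 1.71 to 6.01. Hdac8 did not change sign in any of 13 settings, where it ranged from 1.03 to 1.83 with adjusted p-values from 0.00241 to 0.41. Hdac6 (chromosome X, 7930120 to 7947889, minus strand), the cytoplasmic class IIb enzyme that acts on tubulin, had 2.35 and 5.22 CPM in HC and 16.5 and 9.42 CPM in PC. Its log2 fold change was -1.76 ± 0.61 (SE, adjusted p in edgeR 0.136), from 29 and 116 counts in HC and 566 and 363 in PC. It was -2.50 without HC replicate 4 and -1.34 without HC replicate 3 or PC replicate 1. Over the 13 settings it ranged from -2.88 with protein-coding transcripts only to -0.68 with the length offset, with adjusted p-values from 0.00565 to 0.933.

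The stretch before Hdac6 is shown because it holds several motif matches. It lies on the minus strand at chrX:7947890-7948139 (RefSeq, GRCm38.p6), and capitals mark 4 GC boxes (GGGCGG) and 2 CCAAT boxes, read as CCAAT or as ATTGG on the other strand.
Hdac6: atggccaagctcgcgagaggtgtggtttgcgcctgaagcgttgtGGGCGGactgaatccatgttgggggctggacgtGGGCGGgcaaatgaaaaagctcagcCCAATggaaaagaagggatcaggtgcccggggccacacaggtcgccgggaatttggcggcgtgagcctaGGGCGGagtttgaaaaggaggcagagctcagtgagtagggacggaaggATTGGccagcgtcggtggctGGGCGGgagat
Hdac6 had 61.2% GC and 17 CpG in these 250 bases. Hdac8 had 48.4% GC, 6 CpG, 0 GC boxes and 2 CCAAT matches that overlap each other, and its stretch is not printed, since most of it lies inside the annotated gene.

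Hdac1, Hdac2 and Hdac3, the catalytic subunits of the nuclear corepressor complexes, had groups that overlapped. Groups did not overlap for 61% of all genes tested. Hdac2 had 35.3 and 44.7 CPM in HC and 40.7 and 42.7 CPM in PC, and Hdac3 had 45.6 and 34.7 CPM in HC and 37.6 and 39.5 CPM in PC. Their log2 fold changes were -0.06 (95% interval -0.79 to 0.67) and 0.06 (-0.69 to 0.81). Hdac1, the highest of the class by mean TPM over the 4 libraries but below Hdac2 and Hdac3 in HC, had 54.7 and 27.2 CPM in HC and 65.4 and 45.4 CPM in PC. Its log2 fold change was -0.44 ± 0.43 (SE). A p that misses the threshold does not show that these genes were unaltered, and the intervals still allow changes of over 1.5-fold.

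Hdac10 and Hdac11 were near the limit of these libraries. Hdac10, a class IIb enzyme that acts on polyamines, had 1 and 93 counts in HC and 165 and 156 in PC, that is 0.0812 and 4.19 CPM in HC and 4.795 and 4.05 CPM in PC. HC replicate 4 was thus at the level of PC and HC replicate 3 was not, and the interval of the log2 fold change ran from -4.42 to 2.37. Hdac11, the lone class IV enzyme, had 1.79 and 2.48 CPM in HC and 5.41 and 2.75 CPM in PC, a log2 fold change of -0.93 ± 0.76.

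None of the 7 sirtuins differed at an unadjusted p under 0.05, where 27% of all genes did. Their median log2 fold change was -0.49, against -0.04 over all genes tested. Sirt2 and Sirt1 stood lower in both HC libraries. Sirt2, a mostly cytoplasmic deacetylase and the most abundant sirtuin by TPM, had 24.4 and 29.98 CPM in HC and 42.0 and 35.02 CPM in PC (-0.50 ± 0.31). Sirt1, a nuclear deacetylase of histones and transcription factors, had 12.8 and 14.3 CPM in HC and 18.5 and 19.6 CPM in PC (-0.49 ± 0.34). Sirt6, which binds chromatin and guards telomeres, had 7.55 and 18.7 CPM in HC and 23.8 and 13.9 CPM in PC, and HC replicate 4 lay between the PC libraries. Sirt5, a mitochondrial enzyme that removes acidic acyl groups, had all 4 libraries close together, with 32.3 and 36.0 CPM in HC and 35.5 and 38.7 CPM in PC (-0.12, 95% interval -0.83 to 0.59).

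The sirtuins with the fewest counts differed widely between the HC libraries. Sirt7, the nucleolar sirtuin, had 2.19 and 11.7 CPM in HC and 6.60 and 7.29 CPM in PC, so the HC libraries lay on either side of PC. Sirt4, a mitochondrial sirtuin, had 0 and 46 counts in HC and 118 and 60 in PC, and at 3 counts a value of up to 0.242 CPM is allowed in HC replicate 3. Sirt3, the main mitochondrial deacetylase, had 4.38 and 7.43 CPM in HC and 5.202 and 4.54 CPM in PC. Ep300, Kat5, Kat6a, Kat8, Hat1, Brpf3, Hdac2, Hdac3, Hdac10, Sirt3, Sirt4, Sirt5 and Sirt7 are given per library after their values were seen. Sirt3 overlaps Ric8a and Psmd13 on the opposite strand and Sirt7 overlaps Mafg on its own strand, so their reads may be shared. The same holds for Kat2b with Gm6919, Kat8 with Prss8, Hat1 with Gm13642, Brd2 with H2-DMa, Sirt2 with Nfkbib, and Ncor1 with Ttc19, Gm12276 and Pigl, all on opposite strands.

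All 3 corepressors had groups that overlapped, whereas groups did not overlap for 61% of all genes tested. Ncor1 (chromosome 11, 62316426 to 62458541), the scaffold that activates Hdac3, had 370.0 and 400.8 CPM in HC and 334.9 and 379.7 CPM in PC. The groups overlapped, and the log2 fold change was 0.11 with a 95% interval of -0.62 to 0.83, negative on TPM at -0.23. Sin3a, the scaffold that holds Hdac1 and Hdac2, had 65.0 and 112.2 CPM in HC and 87.5 and 108.8 CPM in PC (-0.15 ± 0.37), and was 0.16 without HC replicate 3. Its paralog Sin3b had 27.6 and 31.2 CPM in HC and 40.4 and 30.7 CPM in PC (-0.27 ± 0.32).

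Ratios between paralogs within a library do not depend on how libraries are scaled to each other. The Kat2a to Kat2b ratio of CPM was 0.921 and 0.549 in HC and 9.82 and 4.19 in PC, a 9.02-fold lower ratio in HC. On TPM it was 0.282 and 0.397 in HC and 8.33 and 3.70 in PC, 16.6-fold lower. Reads of Kat2a thus outnumbered those of Kat2b in both PC libraries and in neither HC library. With 2 libraries per group, an exact permutation test cannot go below p = 0.33, and no test was run. The Kat2b share of TPM lay partly in a transcript of 439 bases, which held 78.4% and 34.3% of it in HC and 35.1% and 7.36% in PC, from 52.2 and 27.3 estimated counts in HC. A few reads on so short a transcript weigh heavily in TPM, which is why the CPM ratio is given first.

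The other 6 pairs differed less. On TPM the Brd2 to Brd3 ratio was 2.73 and 2.87 in HC and 2.84 and 2.70 in PC, the steadiest of the 7 pairs, although it was 0.592 and 1.16 in HC and 1.41 and 1.16 in PC over protein-coding transcripts alone. Ep300 to Crebbp was 0.379 and 0.705 in HC and 0.451 and 0.434 in PC on TPM, and higher in both HC libraries on CPM, at 0.544 and 0.636 in HC and 0.408 and 0.472 in PC. Hdac1 to Hdac2 was 0.968 and 0.585 in HC and 1.75 and 1.07 in PC, lower in both HC libraries on TPM but overlapping on CPM, at 1.55 and 0.609 in HC and 1.61 and 1.06 in PC. Kat6a to Kat6b overlapped on TPM, at 0.751 and 0.780 in HC and 0.718 and 0.891 in PC, and was higher in both HC libraries on CPM, at 2.50 and 2.45 in HC and 1.65 and 1.82 in PC. Brpf1 to Brpf3 and Sin3a to Sin3b overlapped on both scales.

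**Figure D3:**
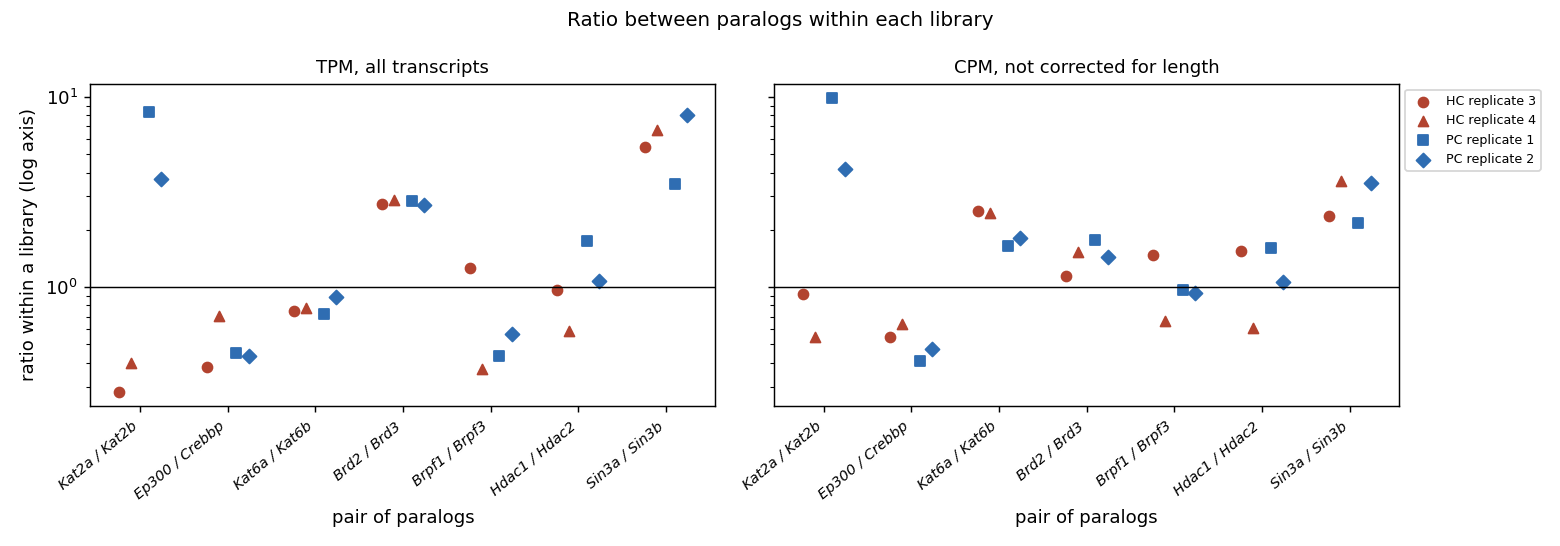
Ratio between 7 pairs of paralogs within each library on a log axis, from TPM (left) and from CPM (right), with HC libraries in red left of PC libraries in blue. For Kat2a over Kat2b both HC libraries lie under the line at 1, and both PC libraries are at 3.70 or above, on either scale.

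Levels between genes can be compared on TPM. Ncor1, Brd2, Brd7 and Sin3a led in both groups, with mean TPM of 295.7, 181.0, 155.8 and 99.4 in HC and 332.8, 258.7, 151.2 and 145.9 in PC. In PC the neighbours Brd7, Sin3a and Brd8 overlapped between libraries. The median over the 35 genes was 16.2 TPM in HC and 28.9 TPM in PC, and 22 genes in HC and 27 in PC averaged at least 10 TPM. The lowest were Hdac10 at 1.07 TPM in HC and Hdac10, Hdac11 and Kat2b in PC, at 3.11, 3.15 and 3.37 TPM. Hdac1 stood at rank 15 in HC and 8 in PC, and Kat7 at rank 22 in HC and 11 in PC.

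Much of the TPM of several genes was assigned to transcripts that are not annotated as protein-coding, such as retained introns. Under 50% of the TPM lay in protein-coding transcripts in all 4 libraries for 8 genes, Brd2, Brd7, Brd8, Hdac10, Sirt1, Sirt4, Ncor1 and Sin3a, and at least 50% in all 4 for 17 genes. A retained-intron transcript of 641 bases held 89.9% and 87.2% of Sin3a in HC and 76.9% and 85.9% in PC. A processed transcript of 511 bases held 87.9% and 89.2% of Brd7 in HC and 84.7% and 86.5% in PC. On protein-coding transcripts alone the order of levels was different, with Crebbp, Ncor1, Brd3 and Brd2 leading in HC, at 84.1, 78.2, 63.9 and 59.4 TPM, and Brd2, Ncor1, Brd3 and Crebbp in PC, with Brd2 at 117.5, Brd3 at 91.7 and Crebbp at 85.2 TPM. The median share per library over the 35 genes was 82.1% and 64.3% in HC and 79.2% and 71.2% in PC, while over 15351 tested genes with a protein-coding transcript it was 100% and 97.5% in HC and 89.9% and 92.3% in PC.

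The protein-coding share was higher in both HC libraries for 2 genes, Kat7 and Hdac1, and lower in both for 8. Among 13835 of the tested genes, those with TPM above 0 in every library, 16% were higher and 13.4% lower. Genes at 100% in every library, such as Kat5, cannot differ and are counted there, so these shares are not a like background. The 8 lower genes were Brd2, Brpf3, Hdac2, Hdac3, Hdac6, Hdac10, Sirt2 and Sin3a. No tolerance was set, and Hdac10 is among them only through a residue of the estimate, with 0.0 estimated counts on its coding transcripts in PC replicate 2 as in both HC libraries. Hdac6 had 10.9% and 7.69% of its TPM in protein-coding transcripts in HC and 60.1% and 58.2% in PC. The main Hdac6 coding transcript of 4069 bases took 11.2 and 37.5 estimated counts in HC and 387.6 and 283.7 in PC. Hdac3 had 53.6% and 27.6% in HC and 92.8% and 71.2% in PC, with a retained-intron transcript of 1368 bases at 46.4% and 69.4% in HC and 0.0% and 25.8% in PC. Kat2a had 100% and 0% in HC, since all 302 counts of HC replicate 4 were assigned to a processed transcript of 2946 bases, against 85.1% and 74.9% in PC. Such an all-or-none split between transcripts of similar length rests on the estimate of the authors' counting step, for which the tables used hold no error. Median effective minus annotated length, which follows the fragment length, was -124.7 and -145.5 bases in HC and -172.8 and -153.3 bases in PC, and its part in these shares was not tested.

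**Figure D4:**
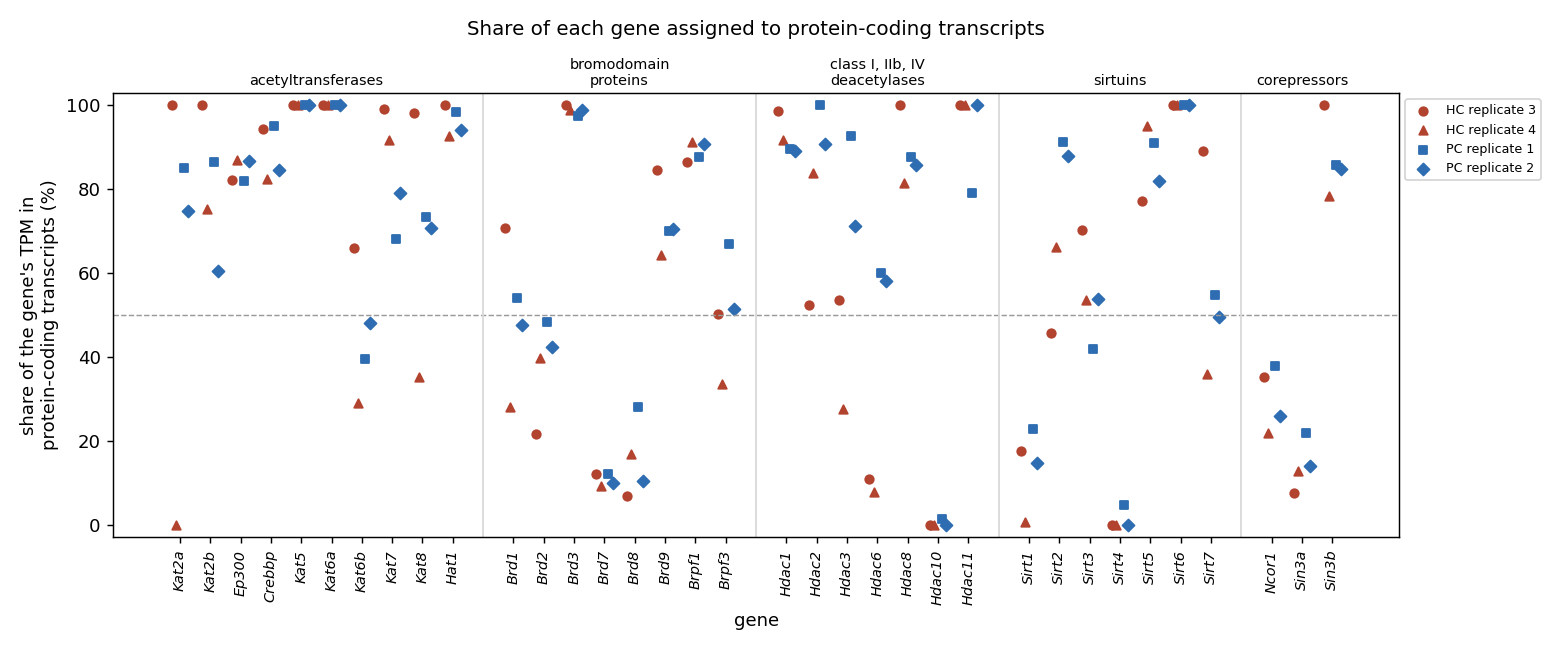
Share of each gene's TPM assigned to protein-coding transcripts in each library, in percent, grouped by class, with HC libraries in red left of PC libraries in blue and a dashed line at 50%. Hdac6 is at 10.9% and 7.69% in HC and 60.1% and 58.2% in PC. Brd2, Brd7, Brd8, Hdac10, Sirt1, Sirt4, Ncor1 and Sin3a are under the line in all libraries.

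Summed over a class, the level in HC replicate 3 was below the other 3 libraries for each class on TPM. Acetyltransferases summed to 186.2 and 293.9 TPM in HC and 312.9 and 304.3 TPM in PC, and the zinc-dependent deacetylases to 85.2 and 107.4 TPM in HC and 144.4 and 112.6 TPM in PC. Sirtuins had the widest gap within HC, at 41.8 and 101.1 TPM in HC and 130.5 and 96.9 TPM in PC. Bromodomain proteins summed to 474.0 and 722.4 TPM in HC and 700.8 and 803.4 TPM in PC, and corepressors to 272.2 and 549.9 TPM in HC and 434.6 and 578.4 TPM in PC. TPM shares a fixed total with mitochondrial transcripts and the gene model Gm10800, which took 8.75% of the counts of HC replicate 3 and between 1.75% and 2.67% of the other libraries. Rescaled without both, the mean log2 difference of HC minus PC lay between -0.15 and -0.09 for 4 classes and at -0.52 for sirtuins, against -0.42 to -0.36 and -0.79 as deposited. On TMM-scaled CPM the acetyltransferases summed to 1196 and 1229 CPM in HC and 1042 and 1183 CPM in PC, both above PC. Crebbp and Ep300 had the most reads in that sum. In both HC libraries 7 of the 10 genes lay below PC and 3 above, against 33.3% and 27.7% of all genes tested. Bromodomain proteins summed to 723.4 and 806.1 CPM in HC and 827.9 and 873.5 CPM in PC, and sirtuins to 83.7 and 120.1 CPM in HC and 135.0 and 120.6 CPM in PC, both below PC. Deacetylases and corepressors overlapped on CPM. In no class did the groups stay apart in the same direction on TPM and on CPM.

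HC replicate 4 was above HC replicate 3 for 24 of the 35 genes and for 51.6% of all genes tested. The median gap within HC was 0.36 in absolute log2 CPM over the 35 genes, against 0.66 over all genes, and within PC 0.21 against 0.30. Over 2-fold higher in HC replicate 4 than in HC replicate 3 were 7 of the 35 genes (20.0%) and 17.5% of all genes tested.

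Other genes of histone acetylation were followed in 11 lists of 138 partner subunits and related genes, of which 136 were found and tested. Of these, 1 was higher and 2 lower in HC, where 2.75% and 1.96% of all genes were, and 15 and 18 had an unadjusted p under 0.05, where 12.7% and 14.4% of all genes had. Their median log2 fold change was -0.14. The class IIa deacetylase Hdac9, a repressor of Mef2 factors, had 31.8 and 31.8 CPM in HC and 6.95 and 7.29 CPM in PC. Its log2 fold change was 2.16 ± 0.34 (SE from the edgeR fit, adjusted p in edgeR 0.037). The NuRD subunit Mbd3 fell to 7.14 and 10.9 CPM in HC, against 64.1 and 35.4 CPM in PC, a log2 fold change of -2.45 ± 0.45 (adjusted p in edgeR 0.0456). Ruvbl2, an ATPase of the NuA4 and INO80 complexes, fell to 24.8 and 23.8 CPM in HC, against 70.4 and 65.7 CPM in PC, a log2 fold change of -1.49 ± 0.28 (adjusted p in edgeR 0.0479). Without PC replicate 1 the adjusted p-values of Hdac9, Mbd3 and Ruvbl2 were 0.131, 0.102 and 0.241, and without PC replicate 2 those of Hdac9 and Ruvbl2 were 0.0798 and 0.123 (edgeR). All 3 calls also ended in the limma-trend fits, with the length offset, with library size alone (adjusted p = 0.0607, 0.0607 and 0.0565) and with protein-coding transcripts only (0.0593, 0.0625 and 0.0648).

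Partners of the 35 genes are given beside them. Hdac4 and Hdac7, also of class IIa, had log2 fold changes of -1.09 ± 0.30 and 1.95 ± 0.53 (adjusted p in edgeR 0.0891 each). In the SAGA and ATAC list around Kat2a and Kat2b, 0 of 19 subunits passed with edgeR, where 4.71% of all genes did. At an unadjusted p under 0.05, 0 were higher and 2 lower, against 12.7% and 14.4% of all genes. The 2 were Atxn7l3 at -1.83 ± 0.52 and Tada2a at -1.02 ± 0.40. In the NuA4 list around Kat5 and Brd8, 1 of 14 passed as lower, Ruvbl2, where 1.96% of all genes did, and the median was -0.52. At an unadjusted p under 0.05, 4 of these 14 were lower and 1 higher, against 14.4% and 12.7% of all genes. The higher gene was Epc2, at 0.96 ± 0.35. Among SIN3 subunits 0 of 13 passed with edgeR, and Arid4b, at 161.0 and 168.4 CPM in HC and 54.3 and 77.8 CPM in PC, had the smallest p (1.32 ± 0.32, adjusted p = 0.0732). In the CoREST and MiDAC list 0 of 8 passed with edgeR, with Rcor3 at -1.59 ± 0.35 (adjusted p = 0.0607) and Zmym2 at 0.87 ± 0.30 (adjusted p = 0.134). Here, as among the SIN3 subunits, 1 gene was higher and 1 lower at an unadjusted p under 0.05, against 12.7% and 14.4% of all genes. In the list of NCoR subunits and other corepressors 0 of 13 passed with edgeR, where the smallest adjusted p was 0.0777. At an unadjusted p under 0.05, 2 of them were higher and 2 lower, against 12.7% and 14.4% of all genes.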

How the data were processed

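RNA of 4 libraries, 2 HC and 2 PC, was taken from the labels' groups. Trimmomatic 0.36, kallisto 0.43.1 and the build mm10 are named, per the submitters' processing notes. Per the file headers, the deposited tables hold an estimated count, a TPM value and an effective length per transcript. Estimated counts share reads by likelihood among transcripts, and TPM keeps no depth. Of 109282 transcripts, 107987 matched GENCODE M21 (GRCm38), and values were summed per gene. Antisense and overlapping genes may share reads, as for 9 of the 35 genes. Intervals and floors cover counting error only where they rest on counts of 1 library.

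Counts were rounded and fitted with edgeR 4.0.16 in R 4.3.3 (filterByExpr, TMM factors 0.812 and 1.021 in HC and 1.14 and 1.058 in PC, quasi-likelihood test of HC over PC, two-sided, Benjamini-Hochberg over 16607 genes, threshold 0.05). SE and 95% intervals came from the same fit, in which the spread of each gene is moderated by that of all genes tested. limma 3.58.1 on log2(TPM + 1) and DESeq2 1.42.0 were alternatives, and the fit was tested on simulated data. Counts of 2 libraries of a group differed by more than sampling noise (chi-square per degree of freedom 174 in HC and 81.2 in PC).

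The 35 genes and the lists were chosen with earlier results of these data known. All 35 are named, and values per library are given for the 3 with the smallest p and the most abundant in each class. In each list of partner genes those that passed are named, otherwise those with the smallest p. The list of NCoR subunits and other corepressors is given by counts alone.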

Additional observations from a re-analysis of the deposited data

How the results depend on the processing

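No paired analysis was possible because PC replicates are numbered 1 and 2 and HC replicates 3 and 4, so the groups share no number. Of 453 values of the 35 genes under 13 settings, 50 changed sign, in 10 genes, while 25 genes kept their direction in every setting that was run. Genes called higher and lower over all genes were 457 and 325 as reported, 1651 and 1446 with DESeq2, 963 and 965 without a filter on low counts, 132 and 67 with an offset for effective length, and 0 and 0 with library size alone, with protein-coding transcripts only and in the 3 limma-trend fits on TPM. Leaving out libraries gave 379 to 3331 higher and 257 to 3775 lower. Of the 35 genes, 2 were higher and 2 lower with DESeq2 and 2 and 1 without the filter, and 0 to 2 higher and 0 to 7 lower without single libraries. Of the partner genes, 1 and 2 as reported became 8 and 11 with DESeq2, 5 and 7 without the filter, 1 and 0 with the length offset, 0 and 0 in each of the settings that called no gene, and 1 to 12 and 0 to 29 without single libraries. The cause was not tested. Over all genes the median log2 fold change was -0.29 with library size alone, and in the limma fits -0.48, -0.60 (pseudocount 0.1) and -0.17 (no filter).

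With library size alone Brd1 was at -0.10, Brpf1 -0.26, Brpf3 -0.18, Hdac3 -0.22, Ncor1 -0.14 and Sirt7 -0.14. With limma-trend at a pseudocount of 1, with or without the filter, Brd1 was at -0.37, Brpf1 -0.47, Brpf3 -0.90, Hdac3 -0.23, Ncor1 -0.23, Sirt3 -0.48 and Sirt7 -0.67, and at 0.1 they were at -0.40, -0.51, -0.97, -0.23, -0.23, -0.61 and -1.0. With the length offset Brpf1 was at -0.04, Brpf3 -0.30, Hdac11 0.08, Hdac2 0.27 and Sirt3 -0.13. With protein-coding transcripts only Brd1 was at -0.03, Hdac3 -0.60 and Sirt7 -0.11, and Hdac10 and Sirt4 did not pass the filter. Without a filter Brpf1 and Sirt7 were at -0.02. Without single libraries the lowest and highest values were -0.18 and 0.20 for Hdac3, -1.71 and 0.72 for Sirt7, -0.01 and 0.17 for Ncor1, -0.13 and 0.09 for Brpf1, -0.63 and 0.43 for Brpf3, -0.29 and 0.07 for Hdac2, -0.64 and 0.16 for Sin3a, -0.04 and 0.25 for Brd1 and -0.20 and 0.58 for Sirt3.

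The summed level of acetyltransferases (mean log2 difference of HC minus PC -0.40) was 0.13 on CPM. That of deacetylases (-0.42) was -0.73 with protein-coding transcripts only, -0.15 without mitochondrial transcripts and Gm10800, and -0.10 on CPM. The log2 ratio difference of Kat2a over Kat2b (-4.05) was -3.17 on CPM, and over protein-coding transcripts it could not be formed, since Kat2a is listed at 0 there in HC replicate 4. Kat6a over Kat6b (-0.06) was 0.51 on CPM, Brd2 over Brd3 (0.01) was -0.63 with protein-coding transcripts only and -0.28 on CPM, Hdac1 over Hdac2 (-0.87) was -0.25 and Sin3a over Sin3b (0.19) was -0.68 with protein-coding transcripts only.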

Other observations

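Outside the classes above, readers of acetyl-lysine held 25 genes, of which 0 passed with edgeR, where 4.71% of all genes did. At an unadjusted p under 0.05, 5 were higher and 3 lower in HC, against 12.7% and 14.4% of all genes. Cecr2, a bromodomain protein of an ISWI remodelling complex, had 25.7 and 76.4 CPM in HC and 4.50 and 7.42 CPM in PC, a log2 fold change of 3.10 ± 0.62 (adjusted p in edgeR 0.0529). Baz2b had 219.7 and 279.5 CPM in HC and 76.8 and 103.3 CPM in PC, at 1.47 ± 0.33. In the list around Kat6a, Kat6b and Kat7, Jade2 and Jade3 had log2 fold changes of -1.77 ± 0.44 and 0.95 ± 0.37, neither past the threshold. In the MSL and NSL list around Kat8, Kansl1 was at 0.67 ± 0.27 and Msl3 at -0.83 ± 0.38. Of 13 genes that supply acetyl-CoA or NAD, 0 passed with edgeR. Of these, 1 had an unadjusted p under 0.05, against 27% of all genes. It was Naprt, which had 0 counts in both HC libraries.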
